A study of Mus musculus with 4 samples.

Results

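The 10 genes described here are the MHC class II genes of the mouse that were listed by symbol for this account, together with the gene of their transcriptional coactivator: H2-Aa, H2-Ab1, H2-Eb1, Cd74, H2-DMa, H2-DMb1, H2-DMb2, H2-Oa, H2-Ob and Ciita. They were found by symbol among 32285 gene identifiers. No measured value served as a rule to choose them, but they were chosen with earlier results of these data known. Their levels were read in single cells of fatty, inflamed mouse liver (NASH, non-alcoholic steatohepatitis), by droplet sequencing on the 10X Chromium platform, in 2 Cyr61 KO libraries and 2 Control libraries. Cyr61 is the secreted matrix protein whose gene the gene table lists as Ccn1. All mice were males of the strain Cyr61fl/fl, in which the gene carries sites for Cre recombinase, aged 24 weeks, and had been on the NASH diet for 12 weeks. The labels call the genotypes Cyr61 KO and Control, and they name neither the Cre driver nor the cells in which the gene was deleted. They also do not say whether the libraries of a group came from separate animals, so the p-values below measure the spread between libraries only.

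MHC class II molecules display peptides from endosomes on the cell surface to CD4+ T cells. An alpha and a beta chain (H2-Aa with H2-Ab1 for the I-A molecule, H2-Eb1 as the beta chain of I-E) pair in the endoplasmic reticulum with the invariant chain Cd74, which blocks the groove and carries the complex to endosomes. There the DM heterodimer (H2-DMa with H2-DMb1 or H2-DMb2) removes the last piece of the invariant chain and helps peptides to bind, and the DO heterodimer (H2-Oa with H2-Ob) inhibits DM. Ciita binds no DNA itself: it is recruited to factors assembled on the X and Y boxes of the class II promoters and switches the genes on together. Dendritic cells, B cells and macrophages are the professional carriers of these molecules, monocytes can acquire them, and resting mouse T cells and neutrophils are known for lacking them.

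Of the 10 genes, 8 lie in 224.3 kb of chromosome 17, at chr17:34092340-34316674 of GRCm38, in the order H2-Oa, H2-DMa, H2-DMb2, H2-DMb1, H2-Ob, H2-Ab1, H2-Aa and H2-Eb1. Ciita and Cd74 lie on other chromosomes, Ciita at chr16:10480059-10528418. Promoter stretches of 74 bases are shown for 6 of the 8, since these are the sequences the members have in common and Ciita acts through. They were read from RefSeq promoter windows of GRCm38.p6, 250 bases before to 50 after each start, and run 5′ to 3′ on the gene's strand. Capitals mark the letters GATTGG, the core of the Y box, and, where present, AACNNATGATG, the letters that 4 of the promoters share at the place of the X box.
H2-Aa (chr17:34287853-34287926, minus strand): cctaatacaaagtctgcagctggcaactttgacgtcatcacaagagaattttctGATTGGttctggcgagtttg
H2-Eb1 (chr17:34305753-34305826, plus strand): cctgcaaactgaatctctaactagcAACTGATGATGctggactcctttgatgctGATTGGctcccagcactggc
H2-DMb1 (chr17:34153075-34153148, plus strand): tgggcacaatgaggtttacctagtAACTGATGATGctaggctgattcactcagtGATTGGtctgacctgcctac
H2-DMb2 (chr17:34145104-34145177, plus strand): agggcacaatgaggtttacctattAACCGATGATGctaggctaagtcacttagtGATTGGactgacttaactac
H2-Oa (chr17:34092281-34092354, plus strand): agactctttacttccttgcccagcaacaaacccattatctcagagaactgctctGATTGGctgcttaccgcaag
H2-Ob (chr17:34238793-34238866, plus strand): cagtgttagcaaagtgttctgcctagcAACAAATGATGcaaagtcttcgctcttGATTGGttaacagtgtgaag

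GATTGG, searched on both strands, was in a window of each of the 7 members that have one, and in 16.1% of all 32851 windows. AACNNATGATG, also searched on both strands, was in 45 windows, 0.137% of all, among them those of H2-Eb1, H2-DMb1, H2-DMb2 and H2-Ob. In these 4 the X letters began 29, 30, 30 and 27 bases before the Y letters, and no other window held both with starts 20 to 40 bases apart on one strand. The X letters are the consensus of these same 4 windows, so the counts describe the sequences and test nothing. H2-Aa and H2-Oa do not hold these exact letters, which says only that the letters are not in these windows.

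The 4 libraries held 7241 and 5373 barcodes with 17187561 and 17925516 UMIs in the Cyr61 KO libraries, against 4852 and 7253 barcodes with 8290677 and 20537236 UMIs in the Control libraries, so Control 1 was the shallowest. After filters 24030 cells remained, with median depths of 1913 and 2869 UMIs in the Cyr61 KO libraries and 1225 and 2241 UMIs in the Control libraries. Ccn1 had 0 and 12 UMIs in all Cyr61 KO barcodes, against 184 and 149 in the Control barcodes. This check of the labels rests on stromal cells: 0 and 0 cells of the Cyr61 KO libraries were gated as mesothelial and fibroblast-like, against 296 and 60 of the Control libraries, and these held 171 and 145 of the Control UMIs. Outside the stromal class Ccn1 had 0 and 0.687 CPM in the Cyr61 KO libraries, against 1.76 and 0.0515 CPM in the Control libraries, so Cyr61 KO 2 lay above Control 2 and these cells do not check the labels. The tissue is labelled liver, yet cells gated by albumin and other hepatocyte genes numbered 41 and 23 in the Cyr61 KO libraries and 6 and 11 in the Control libraries, and nearly all other classes were immune cells. Any pair of libraries shared 6 to 22 barcodes.

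Each cell was placed in the class of which it showed the most markers, at least 2 of them, and none of the 10 members served as a marker. Markers seen in more than 5% of kept cells counted only for B cells, T cells and natural killer cells with type 1 ILC. In this way 20559 cells were placed, 3471 had no class, and 2332 of those placed had exactly the marker minimum. B cells numbered 2660 and 1663 in the Cyr61 KO libraries and 650 and 1884 in the Control libraries, with Cd79a in 83.8% to 94.9% of them. Dendritic cells were few. Conventional dendritic cells of type 1 (Xcr1, Clec9a, Naaa) numbered 20 and 9 in the Cyr61 KO libraries and 65 and 48 in the Control libraries. Those of type 2 (Cd209a, Clec10a, Kmo) numbered 20 and 13 against 83 and 73. Migratory ones (Fscn1, Cacnb3) numbered 5 and 13 against 36 and 26, and plasmacytoid ones (Siglech, Ccr9) 14 and 25 against 47 and 46. Macrophages expressing C1q genes numbered 10 and 3 in the Cyr61 KO libraries and 112 and 58 in the Control libraries. Their Kupffer cell markers Clec4f and Timd4 were in 0% of the Cyr61 KO cells and in at most 1.7% of the Control cells, so the class is called here by C1q alone. Classical monocytes (Chil3, F13a1, Mgst1) numbered 180 and 102 against 127 and 180, and patrolling monocytes (Ace, Adgre4, Treml4) 24 and 6 against 48 and 71. Natural killer cells and type 1 ILC, which the markers do not separate, numbered 615 and 487 against 249 and 338. Type 2 and 3 ILC numbered 1 and 0 against 0 and 3, and their levels are not given.

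The sum of H2-Aa, H2-Ab1, H2-Eb1 and Cd74, called the core sum below, separated the classes widely. Its level is given in CPM, UMIs of the genes scaled to 1000000 UMIs of the class in a library. Over libraries with at least 10 cells it averaged 26827 ± 9654 CPM in type 2 conventional dendritic cells (SD, n = 4), 24170 ± 5928 CPM in type 1 (n = 3), 21175 ± 1906 CPM in C1q macrophages (n = 3), 20052 ± 2615 CPM in B cells (n = 4) and 19286 ± 8208 CPM in migratory dendritic cells (n = 3). The library values of these 5 classes overlapped along this order, so neighbours did not differ beyond their spread. Plasmacytoid dendritic cells followed at 6999 ± 1082 CPM (n = 4), patrolling monocytes at 3947 ± 1184 CPM (n = 3) and classical monocytes at 1459 ± 452 CPM (n = 4). Classical monocytes lay below patrolling monocytes, and these below plasmacytoid dendritic cells, without overlap of libraries. T cells, which should lack the proteins, averaged 456 CPM, natural killer cells and type 1 ILC 429 CPM and neutrophils 256 CPM, and these values serve as the level that free RNA and mixed droplets can reach.

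**Figure D1:**
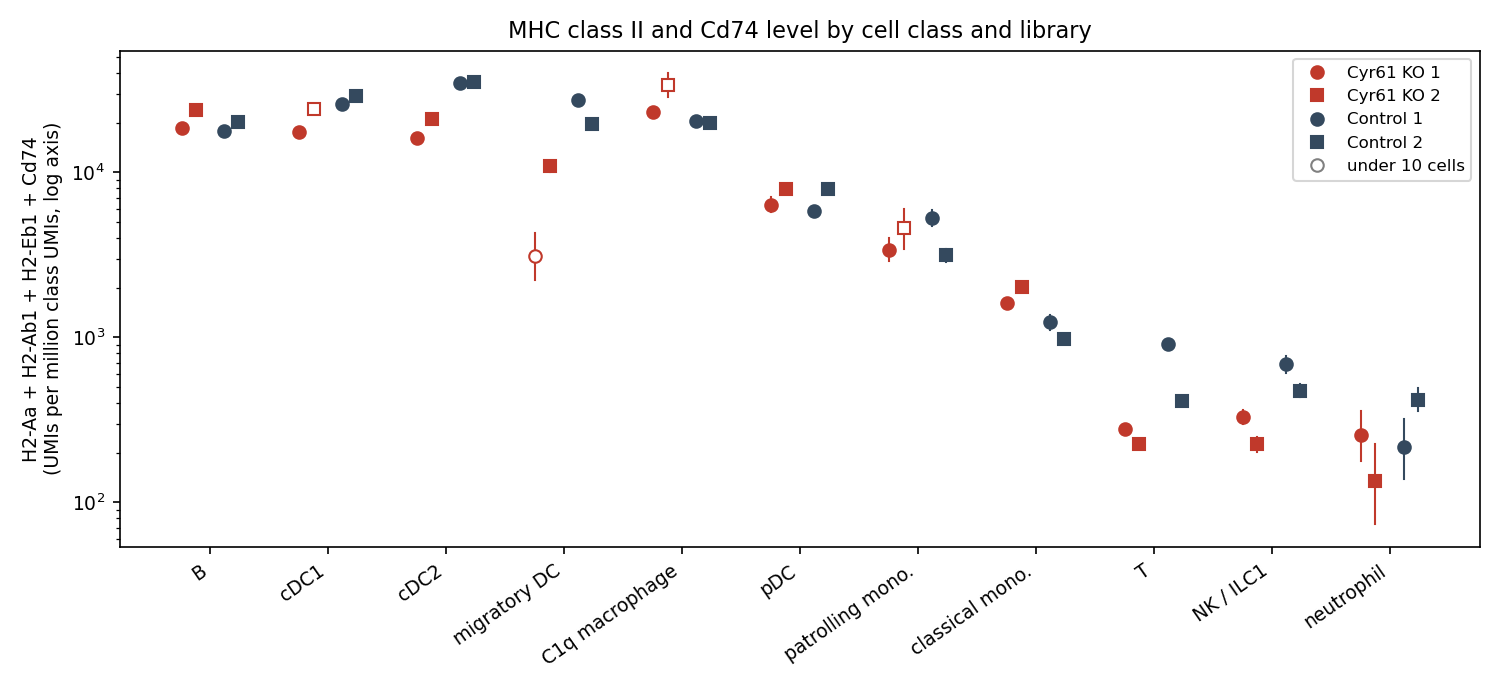
Core sum of H2-Aa, H2-Ab1, H2-Eb1 and Cd74 in CPM (log axis) for each cell class, one point per library with Cyr61 KO left of Control; bars are 95% Poisson intervals of the counts, and open points have under 10 cells. Type 2 conventional dendritic cells of the Cyr61 KO libraries lie at 16152 and 21161 CPM, below those of the Control libraries at 34819 and 35174 CPM, while the B cell points of both genotypes overlap near 20000 CPM.

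The accessory members had orders of their own. Those of the DO heterodimer were highest in B cells, H2-Oa at 219 ± 20 CPM and H2-Ob at 543 ± 65 CPM (SD, n = 4). After B cells came plasmacytoid dendritic cells for H2-Oa, at 117 ± 18 CPM (n = 4), and type 1 conventional dendritic cells for H2-Ob, at 165 ± 6 CPM (n = 3), both below every B cell library. H2-DMb2 was also highest in B cells, at 362 ± 25 CPM against 83 ± 84 CPM in migratory dendritic cells, the next class. Its paralog H2-DMb1 was highest in type 1 and type 2 conventional dendritic cells, at 471 and 405 CPM, and had 105 CPM in B cells. The transcripts of the 2 DM beta genes share 37.6% and 34.4% of their 31-base windows, and 25.3% of the windows in the last 500 bases of H2-DMb1 also occur in H2-DMb2, so the split of reads between them is uncertain there. In the other direction 4 of the 470 windows in the last 500 bases of H2-DMb2, 0.851%, occur in H2-DMb1. H2-DMa, the single DM alpha chain, was highest in type 2 conventional dendritic cells at 647 ± 109 CPM and still reached 224 ± 56 CPM in classical monocytes. Ciita averaged 253 CPM in type 1 (n = 3) and 183 CPM in type 2 conventional dendritic cells, 159 CPM in B cells and 11.5 CPM in classical monocytes (n = 4 each); type 2 conventional dendritic cells and B cells overlapped. Over 45 sums of a class in a library, the log2 level of H2-DMb1 followed the mean of the 4 core genes with Pearson r of 0.85, H2-DMa and Ciita with 0.68, H2-DMb2 with 0.60, H2-Ob with 0.56 and H2-Oa with 0.49. Among genes outside the 10, Fgd2 (r of 0.82), Ifi30 (0.80), Ly86 (0.77), Uvrag (0.74) and Cd180 (0.73) had the patterns most like it. These coefficients are descriptions over sums that share libraries and depth.

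**Figure D2:**
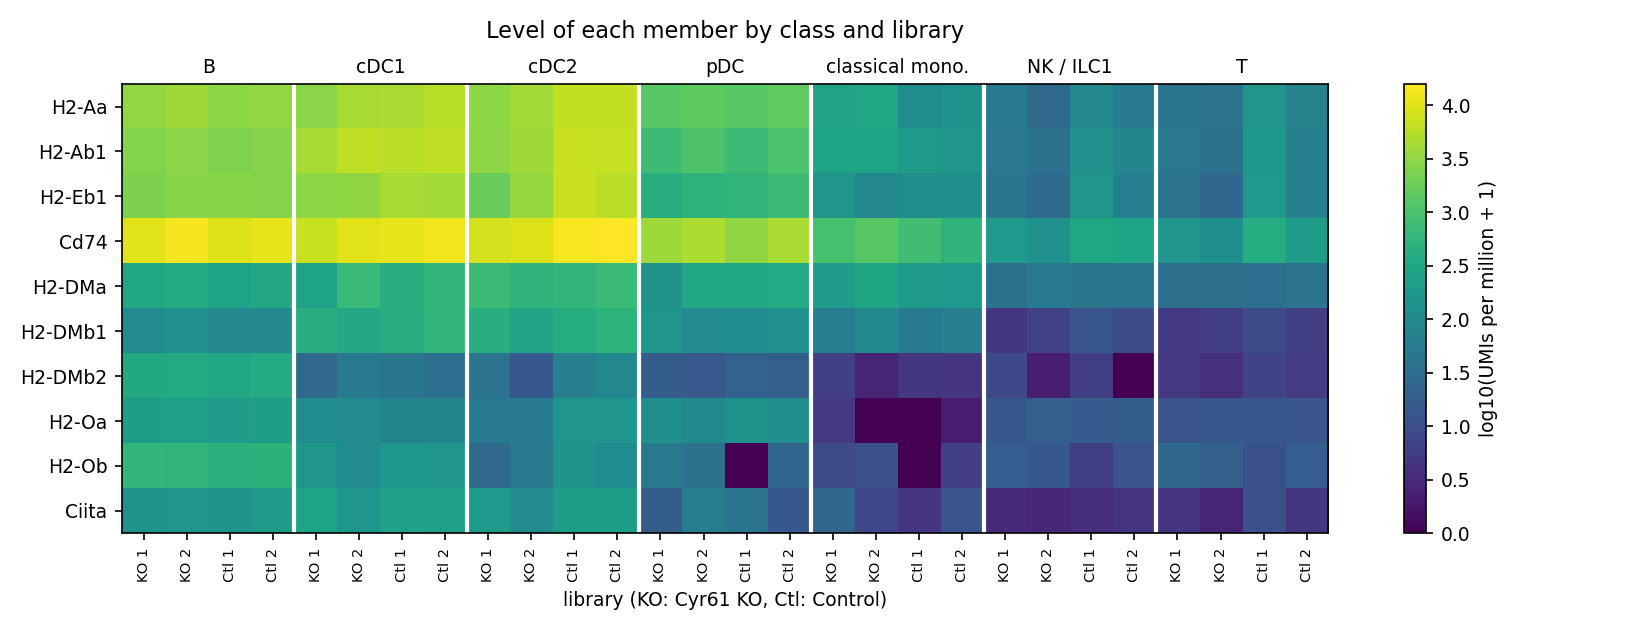
Level of each of the 10 genes as log10(CPM + 1) in 7 cell classes, the Cyr61 KO libraries left of the Control libraries within each class. H2-DMb2, H2-Oa and H2-Ob peak in B cells, H2-DMb1 and H2-DMa in conventional dendritic cells; type 1 conventional dendritic cells of Cyr61 KO 2 rest on 9 cells.

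The classes that held the class II RNA differed between the libraries. B cells held 90.8% and 90.8% of all core UMIs in the Cyr61 KO libraries, against 31.1% and 67.7% in the Control libraries. Counting error is small beside these gaps, with Wilson 95% intervals of 90.7% to 91.0% in Cyr61 KO 1 and 30.7% to 31.5% in Control 1. Both types of conventional dendritic cells together held 1.60% and 2.06%, against 19.9% and 13.2%, and C1q macrophages 0.895% and 0.117%, against 11.3% and 3.32%. Cells of no class held 2.84% and 2.44% in the Cyr61 KO libraries, against 25.3% and 7.73% in the Control libraries. The wide gap between the Control libraries runs along with the share of B cells among kept cells, 37.2% and 32.8% in the Cyr61 KO libraries against 13.8% and 26.6% in the Control libraries. Sums over all kept cells therefore mix class sizes with levels per cell. Over all kept cells, none of the 10 members passed the test, where 8.51% of 14327 genes did, at an edgeR quasi-likelihood p adjusted by Benjamini-Hochberg below 0.05. The core sum was 6854 and 7035 CPM in the Cyr61 KO libraries, against 6334 and 6306 CPM in the Control libraries. H2-Ob, highest in B cells, had 222 and 173 CPM in all kept cells of the Cyr61 KO libraries, against 74.9 and 122 CPM in the Control libraries, a log2 fold change of 1.02 ± 0.30 (SE) with an adjusted p of 0.0915. In all, 3 of the 10 had an unadjusted p below 0.05 by edgeR, as had 4132 of the 14327 genes. DESeq2 called 1 member higher (H2-Ob), where it called 478 genes higher and 1530 lower of 14327.

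**Figure D3:**
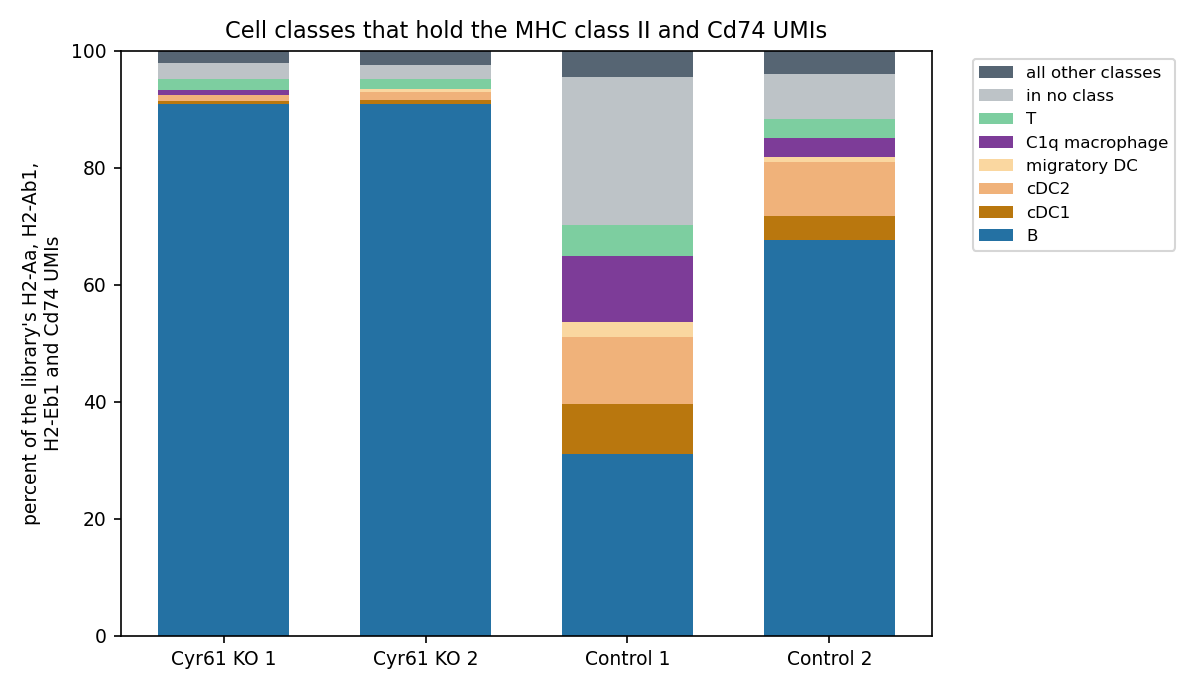
Share of each library's core UMIs (percent, stacked to the whole library) by the cell class that held them, Cyr61 KO libraries left of the Control libraries. B cells fill 90.8% of both Cyr61 KO bars and 31.1% and 67.7% of the Control bars, in which conventional dendritic cells, C1q macrophages and cells of no class take most of the rest.

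In type 2 conventional dendritic cells, the class that best primes CD4+ T cells, the beta chains H2-Eb1 and H2-Ab1 were lower in the Cyr61 KO libraries. H2-Eb1 had 1724 and 3467 CPM in the Cyr61 KO cells, against 7218 and 5894 CPM in the Control cells. It fell by 1.46 ± 0.31 on the log2 scale (SE, adjusted p = 0.00793). H2-Ab1 had 3056 and 3983 CPM in the Cyr61 KO cells, against 6909 and 6810 CPM in the Control cells, and fell by 1.09 ± 0.28 (adjusted p = 0.0279). For both genes each Cyr61 KO library lay below each Control library, which 17.7% of the 1771 genes tested in this class did. Of the 9 members tested these 2 passed, both lower, where 2.2% of all genes were called and 1.02% were called lower.

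The remaining members of this class did not pass the test, although all 9 log2 fold changes were negative, with a median of -0.98. H2-Aa had 3069 and 4195 CPM in the Cyr61 KO cells, against 6435 and 6633 CPM in the Control cells, a log2 fold change of -0.98 ± 0.28 with an adjusted p of 0.0606. Cd74, the invariant chain, had 8305 and 9515 CPM against 14257 and 15837 CPM (-0.89 ± 0.28, adjusted p = 0.104). The DO chains had the most negative estimates: H2-Oa had 52.2 and 52.9 CPM in the Cyr61 KO cells, against 166 and 156 CPM in the Control cells (-1.73 ± 0.51, adjusted p = 0.0714). H2-Ob had 26.1 and 52.9 CPM against 148 and 108 CPM (-1.77 ± 0.57, adjusted p = 0.116). All UMIs of the class numbered 76583 and 75565 in the Cyr61 KO libraries, so both DO chains rested on a few UMIs in each of these. The DM alpha chain stood apart from them, with 757 and 529 CPM of H2-DMa in the Cyr61 KO cells against 581 and 720 CPM in the Control cells (-0.16 ± 0.30, adjusted p = 0.834). H2-DMb1 overlapped as well, at 431 and 278 CPM against 397 and 513 CPM. Ciita had 183 and 106 CPM in the Cyr61 KO cells, against 225 and 216 CPM in the Control cells (-0.74 ± 0.39, adjusted p = 0.385).

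The Cyr61 KO sums of type 2 conventional dendritic cells rest on 20 and 13 cells, and the 2 cells richest in core UMIs held 38.6% and 34.7% of them, against 9.62% and 8.52% in the Control libraries. Thinned to 1000 UMIs per cell, the median cell held 13.5 and 24 core UMIs in the Cyr61 KO libraries, against 33 and 37 in the Control libraries, where 2 and 1 shallower Cyr61 KO cells and 26 and 5 Control cells were left out. At that depth 77.8% and 83.3% of the Cyr61 KO cells had a core UMI, against 93.0% and 95.6% of the Control cells. The exact 95% intervals of these shares overlapped, at 52.4% to 93.6% and 51.6% to 97.9% against 83.0% to 98.1% and 87.6% to 99.1%. Shares of all cells with a core UMI were, unthinned, 90% and 100% against 98.8% and 97.3%. Without Cyr61 KO 1 no member passed, and without each of the others 1 did (H2-Eb1). DESeq2 called 4 members lower, where it called 7 genes higher and 7 lower of the 1359 genes, among 1771, that it gave an adjusted p. With gate and cluster combined neither gene passed, at -1.21 for H2-Eb1 (adjusted p = 0.109) and -0.82 for H2-Ab1 (0.256), and 1 of the 9 estimates was positive. H2-Ab1 also did not pass in cells with at least 1000 UMIs (0.0507) or at most 10% mitochondrial UMIs (0.0648). No fit was made with a gate of 3 markers, which left 11 and 5 Cyr61 KO cells. None was made either with the highest doublet scores removed, as a library then held under 10 cells of the class. With the T cell profile subtracted no gene of the 550 tested was called, and H2-Eb1 stood at -1.45.

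In the other dendritic classes cells were fewer or the values closer. Type 1 conventional dendritic cells had 3031 and 3199 CPM of H2-Eb1 in the Cyr61 KO libraries, against 4543 and 4179 CPM in the Control libraries. H2-Aa had 2893 and 4483 CPM against 4608 and 5543 CPM, and Cd74 had 7081 and 10278 CPM against 11157 and 12839 CPM. In each of these core genes both Cyr61 KO values lay below both Control values, and in H2-Oa above them, at 110.2 and 104.9 CPM against 76.7 and 82.2 CPM. The share of all genes without overlap was not counted in this class. Its UMIs numbered 36295 and 38141 in the Cyr61 KO libraries, so H2-Oa rested on a few UMIs in each. H2-Ab1 overlapped, at 4519 and 6345 CPM against 5770 and 6348 CPM, as did Ciita at 276 and 157.3 CPM against 248 and 236 CPM, H2-DMa, H2-DMb1, H2-DMb2 and H2-Ob. With 9 cells in Cyr61 KO 2 the class was not tested. Pooled with type 2, as an alternative chosen after seeing the data, none of the 10 passed and all 10 log2 fold changes were negative, with a median of -0.77. In the pooled class 6 of the 10 had an unadjusted edgeR p below 0.05, as had 342 of the 3299 genes. DESeq2 called none of the 10, and 0.121% of the 3299 genes passed by edgeR. Taken by cluster, the pooled class held 74 and 41 Cyr61 KO cells against 449 and 245 Control cells. There 9 of the 10 estimates were negative, with a median of -0.53, and no gene of 5592 was called. With gate and cluster combined 9 were negative, with a median of -0.57, and no gene of 2942 was called. Migratory dendritic cells had a core sum of 3126 and 10878 CPM in 5 and 13 Cyr61 KO cells, against 27278 and 19703 CPM in 36 and 26 Control cells, with no test. H2-Oa, H2-Ob and Ciita had 0 UMIs in both Cyr61 KO libraries. Plasmacytoid dendritic cells, which make interferon and hold little class II, had a core sum of 6375 and 7915 CPM in the Cyr61 KO libraries, against 5794 and 7912 CPM in the Control libraries. None of the 7 members tested in them passed, where 0.053% of 1887 genes did. Of the members, H2-Eb1 alone had an unadjusted edgeR p below 0.05, as had 136 of the 1887 genes. It stood at 434 and 522 CPM against 565 and 767 CPM (-0.55 ± 0.24, adjusted p = 0.668), and DESeq2 called no member. H2-DMa had 145 and 325 CPM in the Cyr61 KO cells, against 333 and 372 CPM in the Control cells (-0.53 ± 0.32, adjusted p = 0.777), and H2-Oa had 112 and 98.8 CPM against 141 and 117 CPM (-0.34 ± 0.38, adjusted p = 0.895). Both lay below Control without overlap, as H2-Eb1 did and 14.4% of the genes tested there, while H2-Aa, H2-Ab1, Cd74 and H2-DMb1 overlapped.

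In B cells, which present the antigens their receptors capture, the libraries of the genotypes overlapped for 8 of the 10 members. H2-Aa had 3258 and 3930 CPM in the Cyr61 KO B cells, against 3053 and 3342 CPM in the Control B cells, a log2 fold change of 0.09 ± 0.18. H2-Ab1 had 2660 and 2954 CPM against 2428 and 2783 CPM (0.03 ± 0.17), and Cd74 had 10402 and 14047 CPM against 9441 and 11207 CPM (0.16 ± 0.21). H2-Eb1 had 2311 and 2790 CPM against 2887 and 2714 CPM (-0.21 ± 0.17). The accessory chains that overlapped were as close. H2-DMa had 326 and 382 CPM in the Cyr61 KO B cells, against 272 and 343 CPM in the Control B cells (0.11 ± 0.16), H2-DMb2 had 360.1 and 369.8 CPM against 329 and 389 CPM (-0.07 ± 0.15), and H2-Oa had 213 and 247 CPM against 200.1 and 216 CPM (0.05 ± 0.14).

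None of the 10 members passed in B cells and none had an unadjusted p below 0.05, where 0.748% of 10434 genes passed, and DESeq2 called none of them either. The widest estimates were those of Ciita, at 140 and 157.3 CPM in the Cyr61 KO cells against 149 and 190 CPM in the Control cells (-0.30 ± 0.15, adjusted p = 0.429), and of H2-DMb1, at 106 and 130 CPM against 89.5 and 94.6 CPM (0.26 ± 0.14, adjusted p = 0.463). H2-Ob, the DO beta chain, had 610 and 587 CPM in the Cyr61 KO cells, against 476 and 499 CPM in the Control cells (0.22 ± 0.15, adjusted p = 0.587). H2-Ob and H2-DMb1 were above Control without overlap, as were 30.7% of all genes tested in B cells. Thinned to 1000 UMIs, Ciita was seen in 11.9% and 14.5% of Cyr61 KO B cells, against 15.6% and 17.3% of Control B cells, and in 0.176% and 0.0472% of Cyr61 KO T cells against 0.714% and 0.332% of Control T cells. The B cells left out there for lower depth were 547 and 163 in the Cyr61 KO libraries and 260 and 378 in the Control libraries. Unthinned, the B cell shares were 23.4% and 32.1% against 16.9% and 32.2%, at median depths of 1756 and 2425 UMIs against 1107 and 2106 UMIs, and those of T cells 0.861% and 0.587% against 1.07% and 0.827%, at 2601 and 3724 UMIs against 1441 and 2792 UMIs.

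The genotype difference itself differed between dendritic cells and B cells. In one model over both classes with a term for each library, the log2 fold change of type 2 conventional dendritic cells was lower than that of B cells by 1.22 ± 0.19 for H2-Aa, 1.28 ± 0.19 for H2-Ab1, 1.45 ± 0.22 for H2-Eb1 and 1.18 ± 0.18 for Cd74 (edgeR, adjusted p = 0.00263 each). These 4 were the members called, where 0.193% of 7244 genes were. Without Control 1 no gene of 10471 passed, and without Control 2 none of 7818, so no member could stand out there. The differences of the 4 core genes were then -1.30 to -1.51 and -1.24 to -1.56, with unadjusted p of at most 0.000826 and 0.00186. Both types of conventional dendritic cells together differed from B cells in the same 4 genes (0.461% of genes called), and none of the members differed between plasmacytoid dendritic cells and B cells (0.185%). Set against T cells, none of the members differed in type 2 conventional dendritic cells (0.0411%) or in both types together (0.0975%), while 4 did in B cells (0.55%), 4 in classical monocytes (0.328%) and 3 in plasmacytoid dendritic cells (0.143%), in each of them with the higher log2 fold change in the class named. H2-Aa also had a higher log2 fold change in classical monocytes than in B cells (0.562%). Patrolling monocytes, taken by cluster, differed from T cells (0.579%) and from classical monocytes (0.445%) in none. Leaving out a library ended other calls too: those of both conventional types against B cells without either Control library, those of plasmacytoid dendritic cells without Control 1 or Cyr61 KO 2, and that of classical monocytes against B cells without any library other than Control 1.

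**Figure D4:**
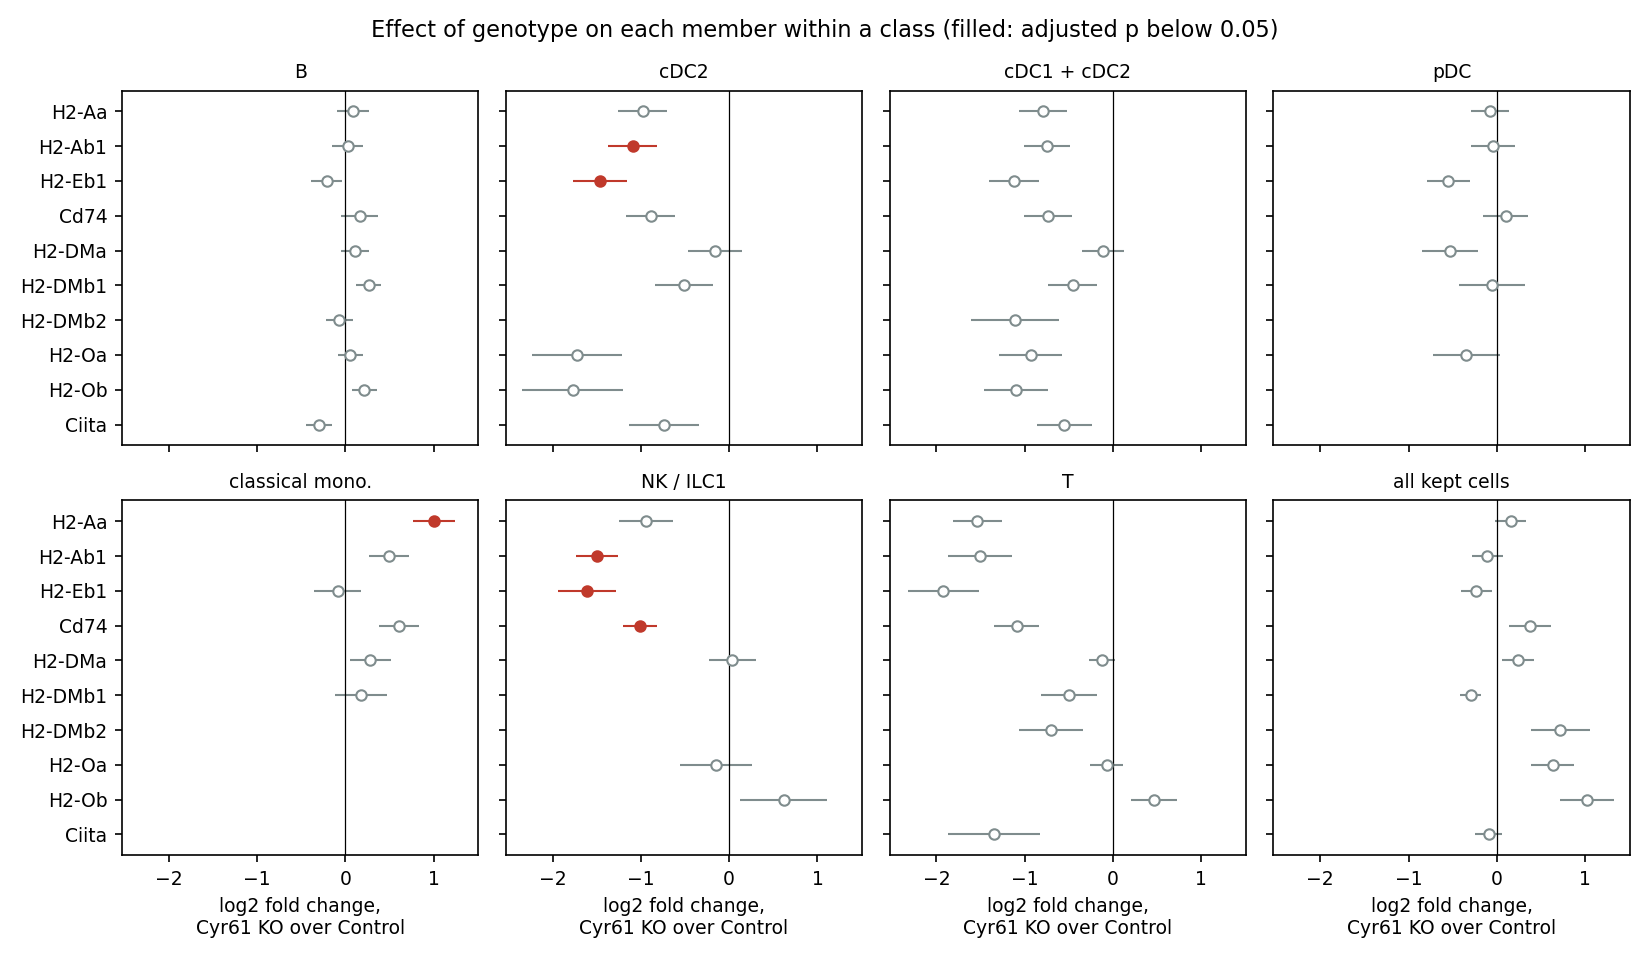
Log2 fold change of Cyr61 KO over Control with its SE for each member tested, one panel per class; filled points have an adjusted p below 0.05. Filled points lie below 0 for H2-Ab1 and H2-Eb1 in type 2 conventional dendritic cells and for H2-Ab1, H2-Eb1 and Cd74 in natural killer cells and type 1 ILC, above 0 for H2-Aa in classical monocytes, and B cells lie near 0.

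C1q macrophages of the Cyr61 KO libraries were too few for a test, and the 4 core genes were not below Control in them. H2-Aa had 4758 and 4225 CPM in 10 and 3 Cyr61 KO cells, against 3707 and 3613 CPM in 112 and 58 Control cells. Cd74 had 10850 and 18779 CPM against 9221 and 8794 CPM, and H2-Eb1 had 3468 and 3991 CPM against 3895 and 3442 CPM. The DO genes and H2-DMb2, which B cells express, were at or near 0 in C1q macrophages of Control: H2-Oa had 0 and 4.63 CPM, H2-Ob 13.9 and 18.5 CPM and H2-DMb2 13.9 and 0 CPM. In the 3 cells of Cyr61 KO 2 H2-Ob and Ciita were at 704 CPM each, where the class holds few UMIs in all. Over the 3 libraries with at least 10 cells H2-Ab1 ranged from 3585 to 4269 CPM and H2-DMa from 331 to 370 CPM. H2-DMb1 ranged there from 178 to 282 CPM, and Ciita from 0 CPM in Cyr61 KO 1 to 78.6 CPM.

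In classical monocytes, the inflammatory cells that enter the liver from blood, 1 of 6 members tested was called, higher, where 0.972% of 6072 genes were called and 0.214% were higher. H2-Aa had 258 and 312 CPM in the Cyr61 KO cells, against 114 and 138 CPM in the Control cells, a log2 fold change of 1.003 ± 0.234 with an adjusted p of 0.0168. Cd74 had 938 and 1329 CPM against 807 and 547 CPM (0.61 ± 0.23, adjusted p = 0.224), and H2-Ab1 had 271 and 275 CPM against 193 and 166 CPM (0.49 ± 0.23, adjusted p = 0.365), both above Control without overlap, as were 29.4% of genes. H2-Eb1 had 155 and 91.2 CPM in the Cyr61 KO cells, against 118 and 123 CPM in the Control cells (-0.09 ± 0.26), and H2-DMa, in most monocyte libraries near 200 CPM, had 206 and 307 CPM against 203 and 181 CPM. H2-DMb1 overlapped at 58.7 and 96.3 CPM against 49.98 and 67.6 CPM (0.17 ± 0.29).

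The class II RNA of classical monocytes sat in few cells. The 18 and 14 Cyr61 KO cells with at least 10 core UMIs held 86.1% and 89.7% of the core UMIs, against 67.8% and 77.6% in 14 and 14 Control cells. Without those cells H2-Aa had 30.2 and 19.8 CPM in the Cyr61 KO libraries, against 32.0 and 10.5 CPM in the Control libraries, and the groups overlapped. At 1000 UMIs per cell 33.7% and 31.6% of the Cyr61 KO monocytes had a core UMI, against 33.0% and 26.1% of the Control monocytes, while T cells had 16.5% and 11.2% against 18.1% and 15.9%. The call of H2-Aa was lost with a log2 fold change of like size without Cyr61 KO 2 (0.92, adjusted p = 0.332), without Control 2 (1.15, adjusted p = 0.0813), with at most 10% mitochondrial UMIs (1.036, adjusted p = 0.0584) and with DESeq2 (1.01, adjusted p = 0.703). With the T cell profile subtracted the estimate was 2.59 ± 1.03, and no gene of 2308 was called. With the highest doublet scores removed it was 0.34 (adjusted p = 0.701). It was negative, at -0.77 with an adjusted p of 0.315, when the class was the whole cluster of classical monocytes, which takes in ungated cells.

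Patrolling monocytes, which survey vessel walls, had a core sum of 3398 and 4590 CPM in 24 and 6 Cyr61 KO cells, against 5306 and 3137 CPM in 48 and 71 Control cells, and the groups overlapped. One cell of Control 1 held 57.2% of that library's core UMIs. H2-Eb1 had 195 and 265 CPM against 1027 and 263 CPM, H2-Aa 671 and 353 CPM against 965 and 533 CPM, H2-Ab1 779 and 706 CPM against 918 and 653 CPM, and Cd74 1753 and 3266 CPM against 2396 and 1688 CPM, each with overlap. H2-DMb1 lay above Control, at 108 and 88.3 CPM against 46.7 and 59.9 CPM, and H2-DMa overlapped at 173 and 88.3 CPM against 187 and 132 CPM. The class held 46200 and 11328 UMIs in the Cyr61 KO libraries, so H2-DMb1 rested on few UMIs there. The share of all genes above Control was not counted in it. H2-Oa, H2-Ob and Ciita had 0 UMIs in both Cyr61 KO libraries and in Control 1, as H2-DMb2 had in Cyr61 KO 1 and Control 1. In the cluster of patrolling monocytes, a class chosen after seeing the data with at least 76 cells in each library, none of the 7 members tested passed and 0.273% of 4035 genes did. Its cells of no class had 417 and 312 CPM of H2-Eb1 in the Cyr61 KO libraries, against 1044 and 1077 CPM in the Control libraries, whereas its gated patrolling monocytes had 219 and 415 CPM against 282 and 118 CPM.

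Natural killer cells and type 1 ILC had core sums near those of T cells, at 330 and 224 CPM in the Cyr61 KO libraries and 688 and 476 CPM in the Control libraries. Of 7 members tested, 3 were lower, where 0.842% of 8193 genes were called and 0.476% were lower. H2-Ab1 had 44.7 and 36.5 CPM in the Cyr61 KO cells, against 132 and 84.6 CPM in the Control cells, and fell by 1.49 ± 0.24 (adjusted p = 0.0044). H2-Eb1 had 43.3 and 28.2 CPM against 151 and 64.3 CPM and fell by 1.61 ± 0.33 (adjusted p = 0.0243), and Cd74 had 189 and 132 CPM against 315 and 271 CPM and fell by 1.01 ± 0.19 (adjusted p = 0.0139). H2-Aa had 52.2 and 27.5 CPM against 89.4 and 55.7 CPM and did not pass (-0.94 ± 0.30, adjusted p = 0.214), nor did H2-Ob at 17.2 and 13.4 CPM against 4.97 and 10.7 CPM. H2-DMa (36.5 and 55.1 CPM against 42.2 and 39.6 CPM) and H2-Oa (13.4 and 17.9 CPM against 14.9 and 16.1 CPM) overlapped.

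T cells held the core genes at a like level, with estimates in the same direction. H2-Ab1 had 46.6 and 35.7 CPM in the Cyr61 KO T cells, against 174 and 65.3 CPM in the Control T cells, and H2-Aa had 41.3 and 38.6 CPM against 161 and 74.8 CPM (-1.54 ± 0.28, adjusted p = 0.107). H2-Eb1 had 38.9 and 25.1 CPM against 183 and 65.4 CPM, and Cd74 had 152 and 127 CPM against 393 and 203 CPM. In all 4 core genes both Cyr61 KO values lay below both Control values, as in 19.2% of the genes tested in T cells. None of the 10 members passed in T cells by edgeR or DESeq2, where 0.0605% of 11572 genes passed by edgeR. An unadjusted edgeR p below 0.05 was found for 5 of the 10 and for 1631 of the 11572 genes. Leaving out a Control library moved the whole table with the members. Without Control 1 the 4 core genes passed as lower, where 196 genes were called higher and 242 lower of 12038. Without Control 2 these 4 and Ciita passed as lower and H2-Ob as higher, where 525 genes were called higher and 658 lower of 11995. Cells with at least 10 core UMIs were 24 and 19 of the Cyr61 KO T cells and 49 and 54 of the Control T cells, and held 42.3% and 59.5% of the core UMIs against 79.4% and 65.3%. Without them the core sum of T cells was 164 and 93.8 CPM against 198.96 and 146.4 CPM. In natural killer cells and type 1 ILC such cells were 4 and 3 of Cyr61 KO and 2 and 10 of Control. They held 21.5% and 40.6% of the core UMIs there, against 53.8% and 53.2%, and 1 cell of Control 1 held 41.5%. Without such cells the core sum there was 261 and 136 CPM in Cyr61 KO against 323 and 233 CPM in Control. H2-Ab1 then had 36.9 and 22.2 CPM against 78.2 and 31.3 CPM. The groups overlapped, as they did for H2-Eb1 and Cd74. The 3 genes called in that class lie at levels like those in T cells, and the part of free RNA and mixed droplets in the calls was not tested. Subtracting the T cell profile gives no answer here, since H2-Ab1 and H2-Eb1 then had too few UMIs for the fit and no gene of 3221 was called. Cd74 did not pass without Cyr61 KO 2 (adjusted p = 0.0954), and with a gate of 3 markers neither H2-Eb1 (0.231) nor Cd74 (0.241) passed. H2-DMa and H2-Oa overlapped between the genotypes here too, at 34.6 and 34.9 CPM of H2-DMa in Cyr61 KO T cells against 33.4 and 39.1 CPM in Control T cells, and 10.9 and 12.98 CPM of H2-Oa against 12.6 and 11.95 CPM. H2-DMb1, H2-DMb2 and Ciita were at 10.2 CPM or less in each T cell library, and H2-Ob had 24.2 and 17.8 CPM against 10.2 and 16.9 CPM. For every 100 UMIs of Cd74, T cells had 22.7 and 27.5 UMIs of H2-DMa in the Cyr61 KO libraries and 8.49 and 19.3 in the Control libraries, where B cells had 3.14 and 2.72 against 2.88 and 3.06. T cells thus held H2-DMa in another ratio to Cd74 than B cells did in each library.

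Members with few UMIs did not enter the fit of a class. In type 2 conventional dendritic cells this was H2-DMb2, at 39.2 and 13.2 CPM in the Cyr61 KO libraries against 65.2 and 90.04 CPM in the Control libraries. Plasmacytoid dendritic cells lacked tests of H2-DMb2, H2-Ob and Ciita, of which Ciita had 16.1 and 56.5 CPM against 40.4 and 13.5 CPM. In classical monocytes H2-DMb2, H2-Oa, H2-Ob and Ciita were not tested, the first 3 at 10.1 CPM or less in each library, and Ciita had 24.0 and 6.76 CPM against 3.57 and 11.8 CPM, with overlap. Natural killer cells and type 1 ILC had H2-DMb1, H2-DMb2 and Ciita at 12.4 CPM or less in each library. Neutrophils, in which Cd74 alone could be tested, had 136 and 76.9 CPM of it in the Cyr61 KO libraries against 135 and 225 CPM in the Control libraries, and it did not pass (adjusted p = 0.733), nor did any other gene by edgeR (0% of 1647, with 106 at an unadjusted p below 0.05), while DESeq2 called 1 gene and no member. Their other members had 69.4 CPM or less in each library.

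The I-E beta chain also differed from the I-A alpha chain in its proportion. B cells had 70.9 and 71.0 UMIs of H2-Eb1 for every 100 of H2-Aa in the Cyr61 KO libraries, against 94.5 and 81.2 in the Control libraries. Type 2 conventional dendritic cells had 56.2 and 82.6 against 112 and 88.9, plasmacytoid ones 33.3 and 35.7 against 43.4 and 51.7, and classical monocytes 60.1 and 29.2 against 103 and 89.1. Natural killer cells and type 1 ILC had 82.9 and 102 against 169 and 115. In 5 of the 7 classes with at least 10 cells in each library both Cyr61 KO values lay below both Control values. T cells overlapped, at 94.2 and 65.0 against 114 and 87.5. In neutrophils both Cyr61 KO values lay above, at 167 and 200 against 100 and 114, with as few as 1 H2-Aa UMI in a library. How many other gene pairs behave in this way was not counted. These proportions were compared after the levels had been seen and were not tested, and the classes share their libraries.

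**Figure D5:**
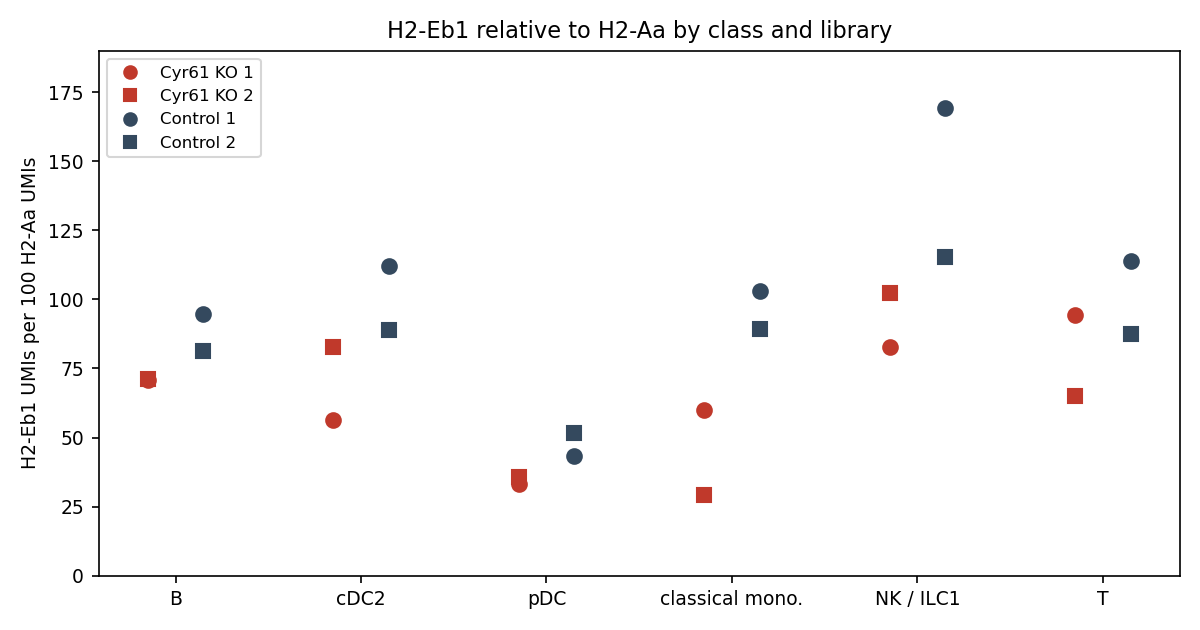
UMIs of H2-Eb1 for every 100 UMIs of H2-Aa by cell class, one point per library with Cyr61 KO left of Control. B cells lie at 70.9 and 71.0 in the Cyr61 KO libraries and at 94.5 and 81.2 in the Control libraries.

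The other genes of the pathway, 32 chosen by known role of which 31 were found (proteases, promoter factors, regulators of Ciita, surface turnover and costimulation), gave few calls. In B cells 30 were tested and 1 passed: Ifi30, the thiol reductase that unfolds antigens in endosomes, had 156.9 and 143.9 CPM in the Cyr61 KO cells, against 247 and 220 CPM in the Control cells, and fell by 0.70 ± 0.14 (adjusted p = 0.0381). That call was lost when any of the 4 libraries was left out, at log2 fold changes of -0.62 to -0.78 and adjusted p of 0.0760 to 0.409, and also with the T cell profile subtracted (0.551), a gate of 3 markers (0.0501) or at least 1000 UMIs (0.0685). The median log2 fold change of the list there was -0.03, against 0.00 over all genes. The protease Ctss, which trims the invariant chain, had 306 and 319 CPM against 326 and 318 CPM and did not pass, nor did Ctsl at 13.99 and 15.09 CPM against 44.2 and 22.3 CPM. In type 2 conventional dendritic cells 13 were tested and 1 passed: Jak2, a kinase of the interferon gamma receptor that drives Ciita, had 39.2 and 39.7 CPM against 202 and 120 CPM and fell by 2.09 ± 0.57 (adjusted p = 0.0472), with a list median of -0.53. The class held 76583 and 75565 UMIs in the Cyr61 KO libraries, so Jak2 rested on a few UMIs in each of these. Jak2 did not pass with DESeq2 (0.520), RLE size factors (0.0621), gate and cluster combined (0.219), at least 1000 UMIs (0.0973), at most 10% mitochondrial UMIs (0.0951) or without Cyr61 KO 1, Cyr61 KO 2 or Control 2 (0.156, 0.166 and 0.126), and its log2 fold change there was -1.80 to -2.49. Ctss had 757 and 873 CPM there against 1121 and 951 CPM and did not pass. In natural killer cells and type 1 ILC 24 were tested and 2 were higher, neither of them a class II gene: Irf8 had 470 and 455 CPM against 161 and 260 CPM (0.93 ± 0.19, adjusted p = 0.0264), and Prdm1, a repressor of Ciita in plasma cells, had 105 and 109 CPM against 52.1 and 47.1 CPM (0.97 ± 0.21, adjusted p = 0.0311). The cells of that class were not alike in the genotypes: Gzma, a granzyme of natural killer cells, was in 62.6% and 63.9% of its Cyr61 KO cells, against 34.9% and 34.3% of its Control cells, at median depths of 1774 and 2700 UMIs against 1461 and 2416 UMIs. Of the clusters that carry this name, the one led by Gzma held 312 cells of Cyr61 KO 2 against 143 of Control 2, and the one with Xcl1 and Kit held 162 against 205. The part of this in both calls, and in those of the class II genes there, was not tested. With a gate of 3 markers neither Irf8 (0.0624) nor Prdm1 (0.0591) passed, Irf8 did not without Control 1 (0.101), and Prdm1 did not with DESeq2 (0.286), without Cyr61 KO 2 (0.0678) or without Control 2 (0.164). Of the 26 tested in classical monocytes, 10 in plasmacytoid dendritic cells and 31 in T cells none passed. Over all kept cells 6 of 31 passed, where 8.51% of all genes did. Without Cyr61 KO 1 none of the 6 passed, at adjusted p of 0.0508 to 0.242, and without Cyr61 KO 2 Ctsl alone did (0.0430). Irf4 (0.86), and March1 (0.78), a ligase that removes class II from the surface, were higher, and Ctsl (-2.56), Ctsb (-1.09), Ifi30 (-0.98) and Spi1 (-0.84), genes of macrophages and dendritic cells, were lower, in sums in which B cells made up more of the Cyr61 KO libraries.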

How the data were processed

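UMI counts per gene and cell were deposited by the authors as one matrix per library, made with Cell Ranger 3.1.0 on mm10, per the submitters' processing notes; livers had been kept in serum with DMSO, thawed and digested before sorting out dead cells, per the labels' protocols. Cells with at least 500 UMIs, 250 genes and at most 25% mitochondrial UMIs were kept. They were classed by markers, and the counts were summed per class and library. The sums were tested with edgeR 4.0.16 (quasi-likelihood, TMM, filterByExpr, Benjamini-Hochberg) in R 4.3.3 over all genes, where each library had at least 10 cells. A class-by-genotype term with a library block tested differences between classes. The fits were also run on simulated data. These drew all libraries of a class around the same mean profile with a fixed spread, apart from genes set to change. They therefore do not test the spread between the real libraries. Clusters came from scanpy 1.11.5 with leidenalg 0.10.2. Doublets were not removed: scrublet marked 0.014%, 1.74%, 0.0424% and 0% of the cells of Cyr61 KO 1, Cyr61 KO 2, Control 1 and Control 2, so it had not worked in most libraries, and removal by score is an alternative.

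The 10 members are named in each class described, those with few UMIs or no test in part by their range or overlap only, and neutrophils and migratory dendritic cells mainly by Cd74 or the core sum; of the other pathway genes, up to 6 called by smallest p and up to 3 not called in list order; and the 5 outside genes most like the core pattern. The members and lists were chosen with earlier results of these data known. Alternatives were DESeq2 1.42.0, RLE size factors, no filter, a replicate block, other gates, depths and cell filters, subtraction of the T cell profile, and each library left out; the gate within clusters, the pooled conventional dendritic cells and the cluster of patrolling monocytes were chosen after seeing the data. Intervals (95%: Wilson for shares of UMIs, exact for shares of cells, Poisson for counts) cover counting error only. Replicates differed beyond sampling noise (chi-square per degree of freedom 35.0 between the Cyr61 KO libraries and 51.7 between the Control libraries).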

Additional observations from a re-analysis of the deposited data

Results flagged for a closer look

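In 20 instances the log2 fold change of Cyr61 KO over Control of a core gene differed between 2 classes, by an edgeR interaction term with a library block and an adjusted p below 0.05; each value below is the effect in the first class minus that in the second. B cells minus T cells gave 1.59 for H2-Aa, 1.46 for H2-Ab1, 1.63 for H2-Eb1 and 1.23 for Cd74, where 0.55% of all genes tested differed. Classical monocytes minus T cells gave 2.43 for H2-Aa, 1.86 for H2-Ab1, 1.61 for H2-Eb1 and 1.73 for Cd74 (0.328% of all genes), and classical monocytes minus B cells gave 1.016 for H2-Aa (0.562%). Plasmacytoid dendritic cells minus T cells gave 1.25 for H2-Aa, 1.20 for H2-Ab1 and 1.016 for Cd74 (0.143%).

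Both types of conventional dendritic cells together minus B cells gave -0.996 for H2-Aa, -0.89 for H2-Ab1, -1.03 for H2-Eb1 and -0.9997 for Cd74 (0.461%). Type 2 conventional dendritic cells minus B cells gave -1.22 for H2-Aa, -1.28 for H2-Ab1, -1.45 for H2-Eb1 and -1.18 for Cd74 (0.193%). None of the members differed between plasmacytoid dendritic cells and B cells (0.185%) or between either set of conventional dendritic cells and T cells (0.0975% for both types, 0.0411% for type 2). By cluster, none differed between patrolling monocytes and T cells (0.579%) or classical monocytes (0.445%). The classes of a library share its free RNA, and the part of this in the differences was not tested.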

How the results depend on the processing

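Over 68 results and 717 alternatives, 571 kept their direction and side of the threshold, counts within 1.5 times. A count of 0 that stayed 0 was scored as kept. For the 16 calls of single genes, 143 of 203 alternatives kept the call, 59 lost it and 1 reversed its direction. Of all alternatives 2 reversed. H2-Aa in classical monocytes was -0.77 by cluster, and the share of T cells with a core UMI was 2.93 percentage points higher unthinned in the Cyr61 KO libraries, against -3.13 when thinned. The cause of these and the following changes was not tested. Members called lower in T cells, none in the report, were 5 without a filter (372 of 19068 genes lower). In type 2 conventional dendritic cells, 2 in the report, they were 4 with DESeq2 (7 lower of 1359 genes with an adjusted p) or no filter (44 of 12085). They were 1 at 1000 UMIs (10 of 1659) or at most 10% mitochondrial UMIs (9 of 1770), and 0 with the T cell profile subtracted or with gate and cluster combined. In natural killer cells and type 1 ILC, 3 in the report, they were 0 with the T cell profile subtracted (2 members tested). They were 1 with a gate of 3 markers (37 of 7908 genes lower) or the highest doublet scores removed (40 of 8052). In classical monocytes the call of H2-Aa as higher became 0 calls with DESeq2, the T cell profile subtracted, at most 10% mitochondrial UMIs, clusters or the highest doublet scores removed. Under the last, 1 member (H2-Eb1) was called lower, where 35 of 5841 genes were. Both types of conventional dendritic cells had 1 lower without a filter (28 of 12983 genes lower). Over all kept cells 1 was higher with DESeq2 (478 of 14327 genes higher) and 3 without a filter (1017 of 23645). With the profile subtracted no gene was called in type 2 conventional dendritic cells, natural killer cells and type 1 ILC or classical monocytes, so lost calls there say nothing of the members.

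Other pathway genes called went to 2 (no filter) and 0 (T cell profile subtracted, gate of 3 markers, 1000 UMIs) in B cells, from 1. In type 2 conventional dendritic cells, also 1, they were 2 without a filter and 0 with DESeq2, RLE size factors, the T cell profile subtracted, gate and cluster, 1000 UMIs or at most 10% mitochondrial UMIs. In natural killer cells and type 1 ILC, 2, they were 1 with DESeq2, 0 with the profile subtracted or 3 markers, and 4 by cluster. Without a filter T cells had 2 called, where 244 genes were higher and 372 lower of 19068. All kept cells then had 11, where 1017 genes were higher and 2290 lower of 23645. The gap in the share of cells with a core UMI was 0.098 percentage points at 2000 UMIs and 0.0854 unthinned in B cells (0.213 in the main setting), and -9.27 and -3.03 in type 2 conventional dendritic cells (-13.7).

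Leaving out each library in turn gave 0 to 5 lower and 0 to 1 higher members in T cells, 0 to 1 lower and 0 to 4 higher over all kept cells, 0 to 2 higher in classical monocytes, 2 to 4 lower in natural killer cells and type 1 ILC and 0 to 1 lower in type 2 conventional dendritic cells. Members differing between classes were 3 to 5 for B against T cells, 0 to 2 for classical monocytes against B cells, 0 to 5 for both conventional types and 0 to 4 for type 2 against B cells, 0 to 4 for plasmacytoid dendritic cells and 0 to 1 for both conventional types against T cells. Other pathway genes called were 0 to 1 in B cells, type 2 conventional dendritic cells and classical monocytes, 1 to 2 in natural killer cells and type 1 ILC, 0 to 5 in T cells and 0 to 17 over all kept cells. A group left with 1 library was assumed to vary like the other.

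Equal replicate numbers share only a number: deviations of same-numbered libraries correlated between -0.049 and 0.156. With the replicate block, members called lower were 5 in T cells (575 of 11572 genes) and 5 in type 2 conventional dendritic cells (37 of 1771), 2 were higher over all kept cells (920 of 14327), and other pathway genes called were 3 in B cells, 2 in type 2 conventional dendritic cells, 5 in T cells and 10 over all kept cells. Few cells per library limit the dendritic classes most.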
